A study of Mus musculus with 80 samples.

Results

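Levels of 10 genes of the NF-κB inflammatory response were examined in whole mouse blood after irradiation: Il1b, Il1rn, Cxcl2, Tnf, Ptgs2, Icam1, Nfkbia, Tnfaip3, Nfkb2 and Relb. They were chosen by symbol among the 50365 usable rows of the deposited table, with earlier results of these data known. All 10 were among the 21101 genes that passed the filter on low values. To pass, a gene had to reach 10 normalized reads in 3 or more of the libraries.

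The 80 libraries came from female C57BL/6 mice, whose age the labels do not give. VarDR groups received a variable dose rate and were taken at 2 Gy on day 2 (5 libraries, dose rate label 1 Gy per day), 2.8 Gy on day 3 (6, 0.77 Gy per day), 4.1 Gy on day 5 (6, 0.62 Gy per day) and 9.7 Gy on day 30 (6, 0.056 Gy per day). Acute groups received 2 Gy (6 libraries, day 2), 2.8 Gy (3 libraries, day 3) or 4.1 Gy (6 libraries, day 5) at 0.73 Gy per minute. Each mode and day had its own sham group of 6 libraries. The series title describes external irradiation that stands in for internal 137Cs, so the exposure models, and is not, an internal emitter. The labels number no replicates: a replicate number here only names a library, in the order of listing within its group. Nothing in the labels states that each library came from a separate animal, so the p-values measure the spread between these libraries.

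NF-κB is a family of transcription factors that inhibitor proteins hold in the cytoplasm until a signal frees them. In the canonical route, cytokines, microbial products or DNA breaks lead to loss of the inhibitor IκBα, and subunits such as RelA enter the nucleus and switch on cytokines, chemokines and adhesion molecules. The non-canonical route, best known in B cells and lymphoid tissue, acts through p100, the product of Nfkb2, and its partner RelB. Several target genes, Nfkbia and Tnfaip3 among them, encode inhibitors of the pathway itself.

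Values are normalized read counts as deposited, rescaled so that the typical gene had the same level in every library. Typical here means the median over the 11349 genes above 0 in every library. Over all 21101 genes tested, the median difference after rescaling was still 0.30 on acute day 3 and -0.18 on VarDR day 30. Differences are on the log2(value + 1) scale, irradiated minus sham. They were tested with limma across all 21101 genes, with Benjamini-Hochberg adjustment within each comparison and a threshold of 0.05. The rescaling matters most in the acute groups. As deposited, the median gene stood above sham there by 0.50 on day 2, 1.20 on day 3 and 0.88 on day 5 (log2), so an acute difference reads as a change relative to the typical gene.

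The label of whole blood was checked against markers of its cells. All 12 B cell markers, all 12 monocyte markers, all 10 T cell markers and 13 of 14 mature neutrophil markers were above 0 in every library. Liver transcripts were also present: 20 libraries held over 0.5% of their signal in 25 liver markers, up to 4.58% in a VarDR sham library of day 5. These 20 libraries included 4 of 6 in the VarDR 4.1 Gy group, 3 of 6 in its sham group, 2 of 6 in each of the VarDR 2.8 Gy group and its sham group, 1 of 6 in the acute sham group of day 2, 2 of 3 in the acute 2.8 Gy group, and 3 of 6 in each of the acute 2 Gy and 4.1 Gy groups. Calls among the 10 genes that rest on these libraries are given with and without them. Deposited totals were 15877500 to 77717600 normalized reads per library, with a median of 34545900.

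The promoters of 4 genes that passed the test are shown, 3 with a match to a 10-base consensus of the κB sites that NF-κB binds and 1 without. Icam1, Il1rn and Ptgs2 also passed in a comparison, held no match and are not shown. Sequences are from RefSeq on GRCm38.p6, cover the 250 bases before a transcription start, and read 5′ to 3′ on the gene's strand. Capitals mark matches to the 10-base κB consensus on either strand, and overlapping matches run together.
Nfkb2: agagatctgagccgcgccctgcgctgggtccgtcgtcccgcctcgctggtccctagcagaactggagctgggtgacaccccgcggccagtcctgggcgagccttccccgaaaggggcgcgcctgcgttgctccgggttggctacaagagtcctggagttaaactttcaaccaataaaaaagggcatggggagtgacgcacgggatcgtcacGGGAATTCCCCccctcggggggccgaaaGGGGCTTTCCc
Nfkbia: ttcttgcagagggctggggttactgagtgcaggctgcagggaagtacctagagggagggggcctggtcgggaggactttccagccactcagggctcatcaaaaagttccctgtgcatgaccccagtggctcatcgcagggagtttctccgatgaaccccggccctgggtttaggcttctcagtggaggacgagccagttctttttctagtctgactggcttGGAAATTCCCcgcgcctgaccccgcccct
Tnfaip3: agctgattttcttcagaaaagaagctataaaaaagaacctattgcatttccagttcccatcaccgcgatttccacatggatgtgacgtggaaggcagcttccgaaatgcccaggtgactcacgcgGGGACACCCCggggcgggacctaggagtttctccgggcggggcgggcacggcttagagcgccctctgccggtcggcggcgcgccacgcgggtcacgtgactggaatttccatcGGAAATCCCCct
Il1b: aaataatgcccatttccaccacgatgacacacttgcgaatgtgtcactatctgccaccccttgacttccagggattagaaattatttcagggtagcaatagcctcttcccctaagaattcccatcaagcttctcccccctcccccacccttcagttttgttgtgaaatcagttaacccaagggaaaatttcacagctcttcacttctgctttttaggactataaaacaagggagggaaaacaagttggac

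The windows lie at chr19:46304487-46304736 on the plus strand for Nfkb2, the first of its 3 listed starts, and on the minus strand at chr12:55492648-55492897 for Nfkbia, chr10:19015411-19015660 for Tnfaip3, the first of its 2 listed starts, and chr2:129371140-129371389 for Il1b. The Nfkb2 window held 3 matches, beginning 39, 38 and 11 bases before the start, and the first and second overlap. Nfkbia held 1 match, 29 bases before the start. Tnfaip3 held 2 matches, 125 and 12 bases before the start. Of the 10 genes, 9 had an entry in the promoter table, with 14 starts among them, and 4 of the 9 held a match at 1 start or more: these 3 and Cxcl2. Counted by start, 6 of the 14 windows held a match. Among all 32841 listed mouse promoters, 7.25% held a match in a window of the same length. A match describes letters and shows no binding, and the lack of one in the Il1b window says only that these letters are not in it.

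The 10 genes spanned a wide range of levels in unirradiated blood. Averaged over the 7 sham groups and divided by exon length in kilobases, the level was 922 reads per kilobase for Il1b and 853 for Nfkbia. It was 238 for Nfkb2, 127 for Icam1, 104 for Relb and 93.9 for Tnfaip3. Tnf followed at 37.5 and Il1rn at 21.8. Ptgs2 at 5.95 and Cxcl2 at 3.24 were close to the limit of detection. Neighbours in this order overlapped between Il1b (719 to 1220 over sham groups) and Nfkbia (769 to 956), between Icam1 (108 to 141), Relb (88.1 to 117) and Tnfaip3 (78.5 to 114), and between Ptgs2 (2.07 to 12.7) and Cxcl2 (1.56 to 4.97). Cxcl2 was listed at 0 in 13 libraries, Ptgs2 in 5 and Tnf in 1.

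Across the 7 comparisons with sham, 17 of 70 results passed the threshold, 4 higher and 13 lower in irradiated blood; the share of all genes that passed was 3.27% to 25.1% in the same comparisons. The higher results were Il1b and Icam1 on the early VarDR days and Il1rn on VarDR day 30. The lower results were the non-canonical subunits Nfkb2 and Relb and the inhibitors Nfkbia and Tnfaip3, mostly after acute exposure, with Ptgs2 in 1 comparison. With values as deposited the acute days had 3 higher and 1 lower on day 2, 6 higher on day 3 and 3 higher on day 5. The median gene as deposited was itself raised on these days, by 0.50, 1.20 and 0.88. The shares above are from the rescaled fit, so the counts as deposited are not read as a result about the members.

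**Figure D1:**
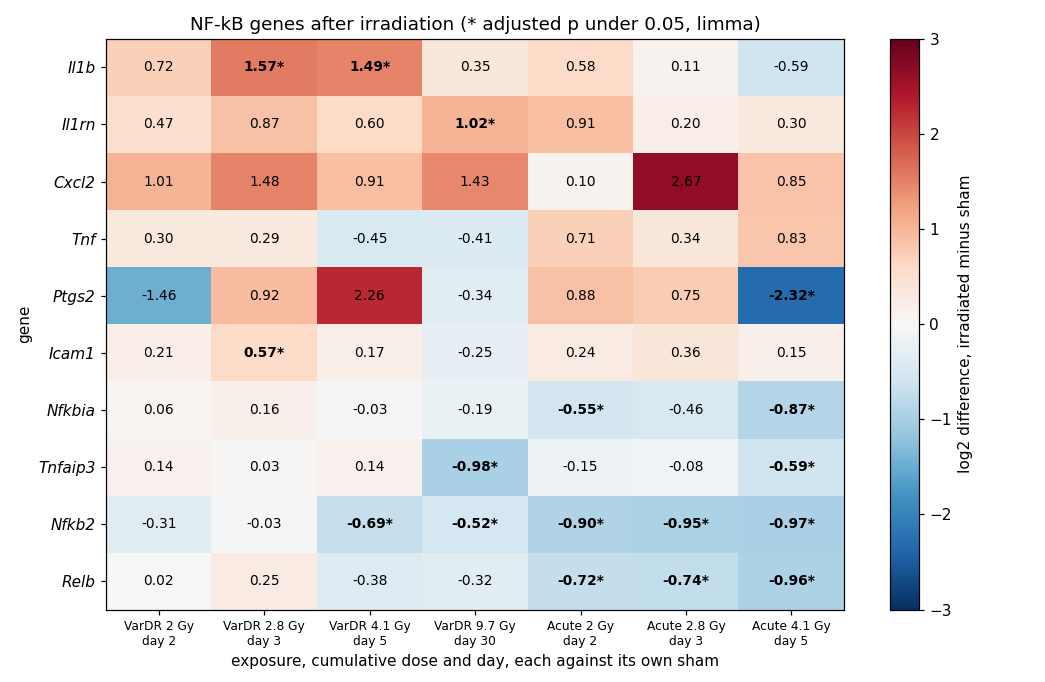
Log2 differences from sham (colour and printed number) for the 10 genes (rows) in the 4 VarDR and 3 acute comparisons (columns); asterisks and bold mark adjusted p under 0.05 (limma). Il1b is highest on VarDR days 3 and 5 (1.57 and 1.49), and Nfkb2 is near -0.9 in the 3 acute columns, which read relative to the typical gene; with values as deposited the acute differences of Tnfaip3 on days 2, 3 and 5, of Nfkbia on days 3 and 5, of Nfkb2 and Relb on day 3 and of Il1b on day 5 change sign.

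Il1b encodes interleukin-1β, a fever-inducing cytokine that myeloid cells make as an inactive precursor. It rose on days 3 and 5 of the protracted exposure. On day 3 the libraries spanned 2819.7 to 8855 normalized reads around a median of 3522 after 2.8 Gy, against 433 to 2920 around 1699 in sham. All but 1 irradiated library lay above every sham library. The difference was 1.57 ± 0.33 (SE; limma adjusted p = 0.000537), a 2.96-fold higher level, and 1.62 (adjusted p = 0.00622) without the libraries rich in liver transcripts. When all other groups were left out of the fit its adjusted p was 0.0553. In this comparison 10.4% of all genes tested passed, and 2 of the 10 members did: Il1b and Icam1.

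On day 5, Il1b spanned 2058 to 5984 around a median of 3799.5 after 4.1 Gy and 751 to 2293 around 1333 in sham. Only 1 irradiated library fell inside the sham range. The difference was 1.49 ± 0.33 (adjusted p = 0.00116), and 1.78 (adjusted p = 0.0232) without the liver-rich libraries. Again 2 of 10 members passed, Il1b and Nfkb2, where 8.79% of all genes did.

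On day 2 the 5 VarDR libraries had 3500, 3097, 3485, 4740.4 and 1807 normalized reads of Il1b, against 1165 to 2510 around a median of 2232 in sham. Of the 5, 4 lay above every sham library, but the difference of 0.72 ± 0.35 did not pass (adjusted p = 0.358). None of the 10 members passed on VarDR day 2 in limma, where 3.27% of all genes did, and 2 (Il1b and Nfkb2) had an unadjusted p under 0.05. On day 30, at 9.7 Gy, the ranges overlapped: 2202 to 3848 around 2659.6 in irradiated blood and 1289.9 to 2876 around 2496 in sham, a difference of 0.35 ± 0.33 (adjusted p = 0.488). The day 30 response minus the day 5 response was -1.15 ± 0.47 (adjusted p = 0.0974).

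After acute exposure, Il1b did not pass on any day. Medians were 2298 normalized reads on day 2 against 1359.5 in sham (0.58 ± 0.33, adjusted p = 0.299), and 1126 on day 5 against 2013 in sham (-0.59 ± 0.33, adjusted p = 0.242). The 3 libraries of day 3 had 1205, 3094 and 981, against 977 to 2091 around 1359.8 in sham. As deposited, Il1b passed on acute day 2 (1.05, adjusted p = 0.0119) and day 3 (1.13, adjusted p = 0.0162), where the median gene was itself raised by 0.50 and 1.20.

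**Figure D2:**
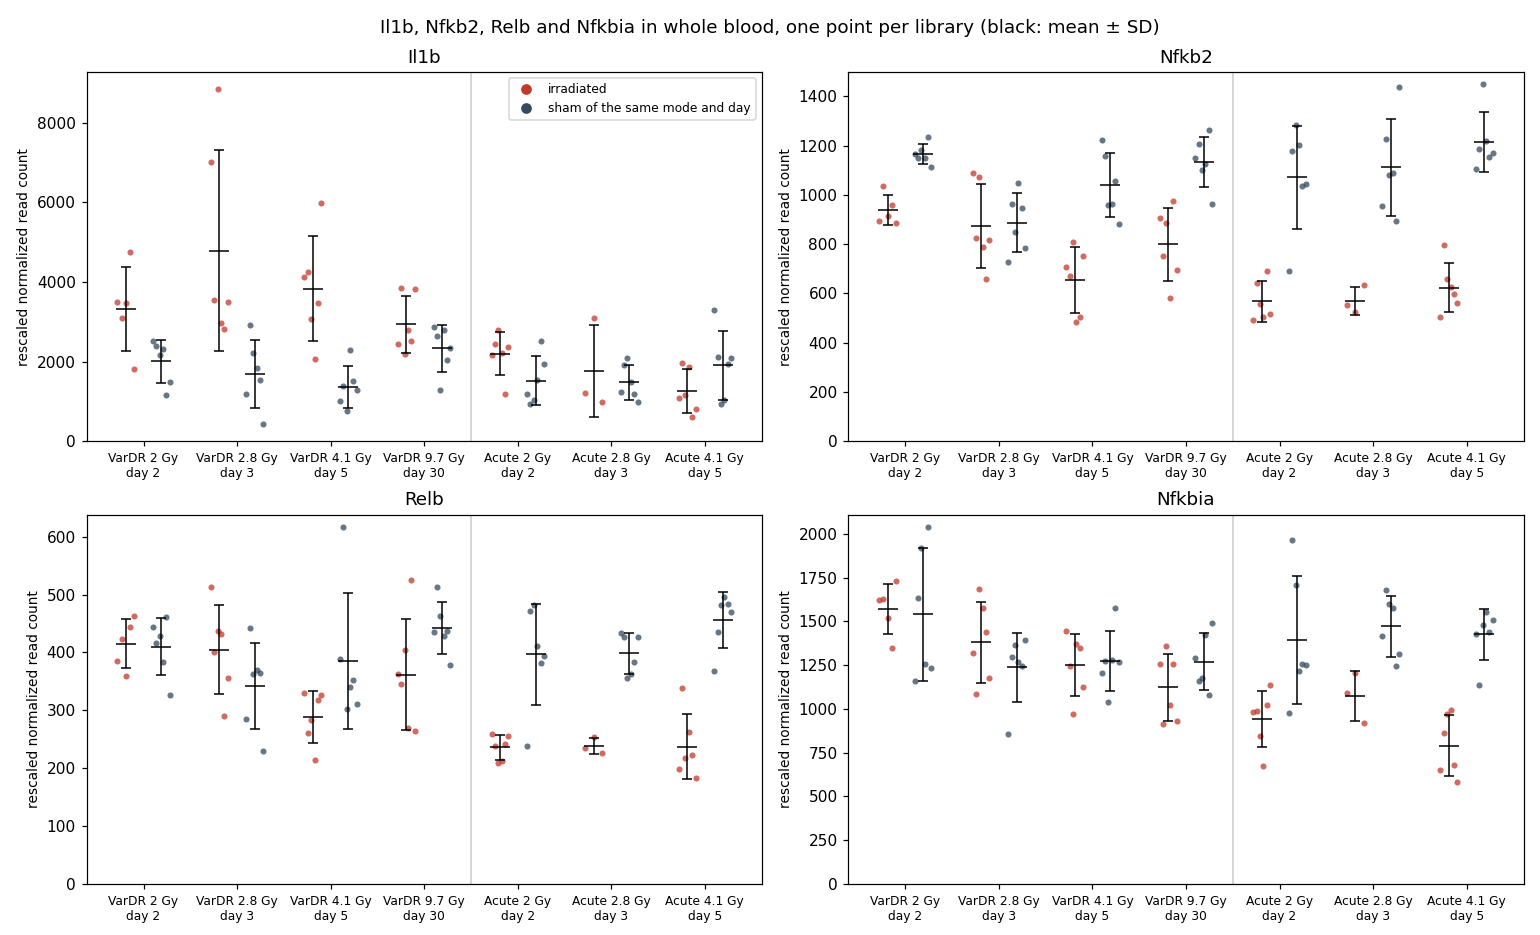
Rescaled normalized read counts (vertical axis) of Il1b, Nfkb2, Relb and Nfkbia, 1 point per library, irradiated left of the sham of the same mode and day, with mean ± SD in black. VarDR libraries of day 3 reach 8855 for Il1b, and after 4.1 Gy acute all 6 libraries lie below all 6 sham libraries for Nfkb2 (503 to 797 against 1106 to 1451), Relb and Nfkbia on this rescaled scale; as deposited, the acute differences of Nfkbia on days 3 and 5, of Nfkb2 and Relb on day 3 and of Il1b on day 5 change sign.

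Il1b is abundant in neutrophils. In irradiated blood the mean sum of 14 mature neutrophil markers was above sham in all 7 comparisons, whether or not Il1b passed. The ranges overlapped on VarDR day 5 and on all 3 acute days. Shares of all genes that passed were 3.27%, 10.4%, 8.79% and 25.1% on VarDR days 2, 3, 5 and 30. On acute days 2, 3 and 5 they were 14.8%, 20.6% and 18.9%. The marker counts of VarDR day 30 and acute day 3 are not read as a result about these markers. The summed level of 14 mature neutrophil markers was 29150.0 to 96221 after VarDR 2.8 Gy and 9846 to 26859 in sham on day 3, with 10 of the 14 higher and none lower. On day 5 it was 19322 to 39599 after VarDR 4.1 Gy and 8546 to 42528 in sham, with 7 of 14 higher. On VarDR days 2 and 30, when Il1b did not pass, the sums did not overlap with sham either: 24765 to 38780 after 2 Gy and 14968 to 20883 in sham (2 of 14 higher), and 26433 to 46953 after 9.7 Gy and 13306 to 25412 in sham (1 of 14 higher). After acute 2 Gy the sum was 20217 to 40780, against 11164 to 30803 in sham, with 5 of 14 higher, and after acute 2.8 Gy it was 14483 to 33524, against 14430 to 27672 in sham, with 2 of 14 higher. In the acute 4.1 Gy group it was 14412 to 47301, against 11117 to 23984 in sham, with 4 of 14 higher. As deposited, 11, 11 and 14 of the 14 were higher on acute days 2, 3 and 5, where the median gene was raised as well. Ly6g was the one marker listed at 0 anywhere, in 2 libraries. The part of neutrophil number in the Il1b result was not tested, and in whole blood a change in cell number and a change in RNA per cell cannot be told apart.

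By the correlation of group means over the 14 groups, the genes whose pattern was most like that of Il1b were Trem1 (r = 0.92), Dusp1 (0.92), Junb (0.91), Slc16a3 (0.91) and Gm37168 (0.90). Trem1 encodes a receptor of neutrophils and monocytes and is one of the neutrophil markers. Il1rn was the nearest member, 39th among all genes (r = 0.78). These points share their libraries, and the correlations are descriptions.

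Il1rn encodes the interleukin-1 receptor antagonist, a secreted protein that blocks the receptor for interleukin-1. It rose on day 30 of the protracted exposure. Its libraries spanned 173 to 401 normalized reads around a median of 264 after 9.7 Gy, against 107 to 165 around 120 in sham, and the groups did not overlap. The difference was 1.02 ± 0.36 (adjusted p = 0.0279), in a comparison where 25.1% of all genes passed and 3 of 10 members did: Il1rn, Nfkb2 and Tnfaip3. The call was close to the threshold: the adjusted p was 0.0746 without replicate 6 of the irradiated group, between 0.0511 and 0.054 without sham replicates 1, 3 or 5, and 0.0588 after quantile normalization. Other cell markers differed in the same libraries: the neutrophil sums of day 30 did not overlap with sham, and the red cell marker sum was 2719842 to 5053395 normalized reads after 9.7 Gy, against 619502 to 2097989 in sham, with 6 of 7 tested red cell markers higher. All 10 platelet markers were higher as well (a sum of 153601 to 208853 after 9.7 Gy and 61370 to 97120 in sham). The part of these cells in the Il1rn result was not tested.

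On the other days, Il1rn did not pass. Its difference was 0.87 ± 0.36 on VarDR day 3 (adjusted p = 0.123) and 0.60 ± 0.36 on VarDR day 5 (adjusted p = 0.342). On acute day 2 it was 0.91 ± 0.36 (adjusted p = 0.082), and 1.09 (adjusted p = 0.0334) or 1.08 (adjusted p = 0.0391) without sham replicate 5 or 6. The ratio of Il1b to Il1rn within a library does not depend on scaling. It averaged 11.4 ± 3.23 on VarDR day 30 and 18.2 ± 4.74 in sham (SD, n = 6 each), and 22.2 ± 7.41 on VarDR day 3 and 14.4 ± 6.88 in sham (SD, n = 6 each). The groups overlapped in all 7 comparisons.

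Icam1 encodes intercellular adhesion molecule 1, the surface ligand that leukocyte β2 integrins bind during adhesion. It rose on VarDR day 3, where libraries spanned 544 to 838 normalized reads around a median of 678 after 2.8 Gy, against 317 to 554 around 482 in sham. A single sham library reached into the irradiated range. The difference was 0.57 ± 0.14 (adjusted p = 0.002), a 1.49-fold higher level, and 0.60 (adjusted p = 0.0152) without the liver-rich libraries.

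In the other 6 comparisons, Icam1 stayed within -0.25 to 0.36 of sham and did not pass. On acute day 3 the 3 libraries had 720, 677 and 687 normalized reads, against 463 to 722 around 534 in sham (0.36 ± 0.17, adjusted p = 0.121). As deposited, Icam1 was higher on all 3 acute days (0.72, 1.37 and 1.10, adjusted p up to 2.06e-05), which is 0.22, 0.17 and 0.22 above the median gene of the same values. Endothelial cells also make Icam1. On VarDR day 3, when Icam1 rose, the sum of 8 endothelial markers averaged 506 ± 314 after 2.8 Gy and 560 ± 602 in sham (SD, n = 6 each), and none of the 8 passed. Without the liver-rich libraries the order of the means turned round, to 316 after 2.8 Gy and 240 in sham (n = 4 each). The ranges then still overlapped (199 to 405 and 97.9 to 414). On acute day 3, when Icam1 did not pass after rescaling, the sum averaged 757.5 ± 243 after acute 2.8 Gy (n = 3) and 251.0 ± 27.9 in its sham (SD, n = 6), and 3 of the 8 were higher (7 of the 8 as deposited). The 1 irradiated library of acute day 3 that was not liver-rich had a sum of 477. Emcn was listed at 0 in 32 of 80 libraries and Robo4 in 31. The part of endothelial RNA in the level of Icam1 was not tested.

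Nfkb2 encodes p100, which is cut to the p52 subunit and which, uncut, holds RelB inactive. It was lower relative to the typical gene in 5 of 7 comparisons. After acute 2 Gy the libraries spanned 491 to 692 normalized reads around a median of 536, against 689 to 1282 around 1109.9 in sham. The 3 acute 2.8 Gy libraries had 551, 524 and 634, against 892 to 1436 around 1083 in sham. At acute 4.1 Gy they spanned 503 to 797 around 611, against 1106 to 1451 around 1178 in sham. The groups did not overlap on days 3 and 5, and on day 2 a single sham library lay inside the irradiated range.

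The Nfkb2 differences were -0.90 ± 0.13 on acute day 2 (adjusted p = 7.35e-08), -0.95 ± 0.16 on day 3 (adjusted p = 3.02e-06) and -0.97 ± 0.13 on day 5 (adjusted p = 9.83e-09), relative to the typical gene; as deposited they were -0.42, 0.06 and -0.02, and only the first passed. The median gene of the deposited values was raised, so that Nfkb2 stood 0.92, 1.14 and 0.90 below it on log2. Without the liver-rich libraries the differences were -0.87, -0.79 and -0.81, and each passed, although day 3 then rested on 1 irradiated library.

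In the protracted exposure, the 5 Nfkb2 values on day 2 were 895, 1037, 916, 958 and 886 normalized reads, against 1112 to 1235 around 1159 in sham. All 5 lay below every sham library, but the difference of -0.31 ± 0.14 did not pass (adjusted p = 0.273; 0.0257 with library weights). On day 3 the groups overlapped widely, with 659 to 1089 around 822 in irradiated blood and 727 to 1046 around 899 in sham (-0.03 ± 0.13, adjusted p = 0.951). On day 5 the libraries spanned 484 to 810 around 688, all below the sham range of 883 to 1224 around 1010.0. That difference was -0.69 ± 0.13 (adjusted p = 0.000114), and -0.42 (adjusted p = 0.139) without the liver-rich libraries, which leaves 2 irradiated and 3 sham libraries. On day 30 the libraries spanned 580.3 to 975 around 820.5 after 9.7 Gy and 965 to 1263 around 1138 in sham, overlapping at 1 sham library (-0.52 ± 0.13, adjusted p = 0.0016).

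Relb encodes RelB, the subunit that pairs with p52. It was lower relative to the typical gene after every acute dose. Libraries spanned 209 to 259 normalized reads around a median of 239 after acute 2 Gy and 239 to 482 around 402 in sham. The acute 2.8 Gy libraries had 235, 253 and 226, against 356 to 434 around 405 in sham. After acute 4.1 Gy they spanned 184 to 338 around 220.1, against 368 to 496 around 476 in sham. The groups did not overlap on days 3 and 5, and 1 low sham library overlapped on day 2.

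The Relb differences were -0.72 ± 0.16 on acute day 2 (adjusted p = 0.00029), -0.74 ± 0.19 on day 3 (adjusted p = 0.00283) and -0.96 ± 0.16 on day 5 (adjusted p = 1.08e-06), relative to the typical gene; as deposited they were -0.24, 0.28 and -0.01 and none passed. Against the median gene of the deposited values, Relb was lower by 0.74, 0.92 and 0.89 on log2. Without the liver-rich libraries the differences were -0.89 on day 2 and -0.76 on day 5, and both passed. On day 3, with 1 irradiated library left, the difference was -0.81. In the VarDR groups Relb did not pass on any day: the differences were 0.02 on day 2, 0.25 on day 3, -0.38 on day 5 (adjusted p = 0.118) and -0.32 on day 30 (adjusted p = 0.123). Leaving out replicate 5 of the 9.7 Gy group gave -0.44 (adjusted p = 0.0361).

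On the 3 acute days Nfkb2, Relb and B cell transcripts were all lower relative to the typical gene. The sum of 12 B cell markers averaged 14721 ± 4293 after acute 2 Gy and 51946 ± 17050.4 in sham (SD, n = 6 each). After acute 2.8 Gy it averaged 12318 ± 4255 (n = 3), against 48068 ± 8788 in sham (n = 6). After acute 4.1 Gy it averaged 6598 ± 668, against 52674 ± 3148 in sham (n = 6 each). All 12 markers were lower on each of these days and on VarDR days 5 and 30. On VarDR days 2 and 3, when neither Nfkb2 nor Relb passed, 10 and 8 of the 12 were lower. Relb passed on no VarDR day, with differences of 0.02, 0.25, -0.38 and -0.32 on days 2, 3, 5 and 30. With values as deposited 12, 11 and 12 of them were lower on acute days 2, 3 and 5. None of the 12 was at 0 in any library. The part of B cell number in the Nfkb2 and Relb results was not tested.

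**Figure D3:**
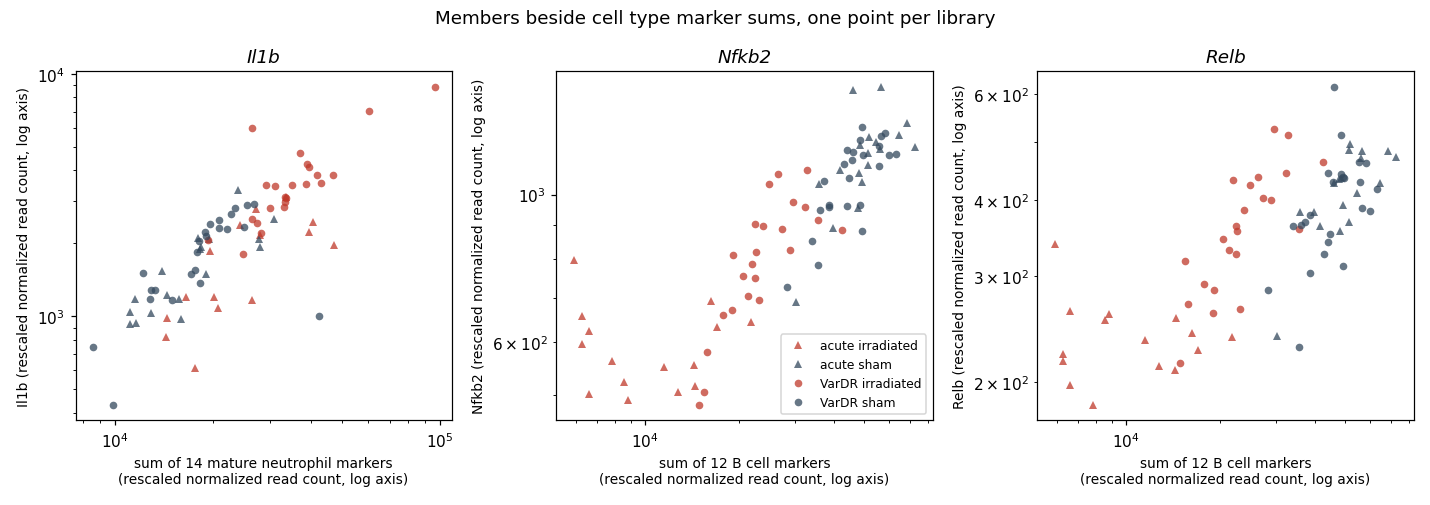
Il1b against the sum of 14 mature neutrophil markers, and Nfkb2 and Relb against the sum of 12 B cell markers (rescaled normalized read counts, log axes), 1 point per library, red irradiated and grey sham, triangles acute and circles VarDR. The VarDR irradiated libraries reach the highest Il1b and neutrophil sums (8855 and 96221), and the acute irradiated libraries have the lowest B cell sums, down to 5907; no correlation was tested, and the points share a library and its scaling.

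Over the 14 group means, Nfkb2 was the 7th gene nearest to Relb (r = 0.94). The 5 nearest were Ighv5-16 (r = 0.97), Ighv1-72 (0.96), Dok3 (0.95), Ighv1-55 (0.95) and Tgif1 (0.95). Of these, 3 are immunoglobulin heavy chain variable segments, which B cells express. Nfkbia ranked 239th (r = 0.86). Icam1 (r = -0.34) and Tnf (r = -0.50) were negative against Relb over the same means.

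Nfkbia encodes IκBα, the inhibitor of the canonical route and itself a rapid NF-κB target. Libraries spanned 673 to 1135 normalized reads around a median of 986 after acute 2 Gy, against 979 to 1963 around 1254 in sham. On day 5, after acute 4.1 Gy, they spanned 585 to 992 around 773, against 1139 to 1555 around 1459 in sham, without overlap. The differences were -0.55 ± 0.15 on day 2 (adjusted p = 0.00367) and -0.87 ± 0.15 on day 5 (adjusted p = 2.25e-06), relative to the typical gene; as deposited they were -0.07 and 0.08, and neither passed. The 3 libraries of day 3 had 1093, 1208 and 920, all below the sham range of 1248 to 1678, yet the difference of -0.46 ± 0.18 did not pass (adjusted p = 0.0598), and as deposited it was 0.56 (adjusted p = 0.00715). Against the deposited median gene, Nfkbia was lower by 0.57, 0.64 and 0.80 on the 3 days. Without the liver-rich libraries the day 2 and day 5 differences were -0.61 (adjusted p = 0.00822) and -0.59 (adjusted p = 0.00665).

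The acute groups in which Nfkbia was lower also differed in their cell markers. Beside the B cell sums given above, the red cell marker sum averaged 38337 after acute 2 Gy and 1145970.0 in sham, 8058 after acute 2.8 Gy and 1439114 in sham, and 318667 after acute 4.1 Gy and 913684 in sham. Of the 7 red cell markers tested, 6, 7 and 2 were lower on the 3 days; as deposited 6, 6 and 1 were lower and 1 was higher on day 5. The platelet marker sum averaged 264504 after acute 2 Gy and 66398 in sham, 353531 after acute 2.8 Gy and 93109 in sham, and 349090.0 after acute 4.1 Gy and 66456 in sham, with all 10 markers higher on each day, also as deposited. The part of these shifts in the acute results was not tested.

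In the 4 VarDR comparisons Nfkbia stayed within -0.19 to 0.16 of sham. The 95% intervals of the 4 differences lay between -0.48 and 0.45. On acute day 2, 14.8% of all genes passed and 3 of 10 members did (Nfkb2, Relb and Nfkbia). The share on acute day 3 was 20.6%, with 2 of 10 members (Nfkb2 and Relb). On acute day 5 it was 18.9%, with 5 of 10 members (Nfkb2, Relb, Nfkbia, Tnfaip3 and Ptgs2).

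Tnfaip3 encodes A20, an enzyme that edits ubiquitin chains and ends NF-κB signalling. It fell most on VarDR day 30, where libraries spanned 269 to 487 normalized reads around a median of 415 after 9.7 Gy, against 592 to 1189.6 around 685 in sham, without overlap. The difference was -0.98 ± 0.21 (adjusted p = 0.000179), a level 0.509 times that of sham. No library of these 2 groups was rich in liver transcripts. In the earlier VarDR comparisons Tnfaip3 lay within 0.03 to 0.14 of sham. The day 30 response differed from the day 5 response by -1.12 ± 0.29 (adjusted p = 0.00669), in a comparison where 12.5% of all genes passed and Tnfaip3 alone of the 10 members did. Without the liver-rich libraries that difference was -0.89 (adjusted p = 0.0933).

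After acute 4.1 Gy, Tnfaip3 spanned 312 to 529 around 497, against 468 to 874 around 725 in sham. Its difference was -0.59 ± 0.21 (adjusted p = 0.0344) relative to the typical gene, and 0.36 (adjusted p = 0.144) as deposited. This call did not hold without any filter (adjusted p = 0.059), without the liver-rich libraries (-0.45, adjusted p = 0.248), or without any one of irradiated replicates 5 and 6 and sham replicates 1, 3, 4 and 6 (-0.48 to -0.58).

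Ptgs2 encodes cyclooxygenase 2, the inducible enzyme of prostaglandin synthesis. It was scarce, so each library is given. After acute 4.1 Gy the values were 12.7, 12.8, 6.05, 8.98, 3.56 and 0 normalized reads, against 34.1, 38.1, 12.8, 49.5, 27.7 and 33.3 in sham. A single sham library reached the irradiated range. The difference was -2.32 ± 0.80 (adjusted p = 0.0291), and -1.53 (adjusted p = 0.107) as deposited. It did not pass without irradiated replicate 5 or 6, without sham replicate 2 or 4 (adjusted p 0.0509 to 0.132), without the liver-rich libraries (-1.66, adjusted p = 0.332), or with a pseudocount of 0.1 (adjusted p = 0.0657).

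On VarDR day 5, at the same cumulative dose, Ptgs2 had 43.8, 39.7, 14, 7.19, 58.4 and 74.8 normalized reads, against 3.64, 11.4, 2.85, 13, 0 and 26.1 in sham. The ranges overlapped, and 4 of 6 irradiated libraries lay above all sham libraries. The difference of 2.26 ± 0.80 did not pass (adjusted p = 0.0614). Without irradiated replicate 4 or without sham replicate 6 it did (2.65 and 2.67, adjusted p = 0.0319 in both), and without the liver-rich libraries it was 2.75 (adjusted p = 0.201).

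Cxcl2 encodes a chemokine that draws neutrophils through their receptor Cxcr2, and Tnf encodes tumour necrosis factor, a major activator of the canonical route. Neither passed in any comparison after rescaling. Cxcl2 on acute day 3 had 10.5, 14.5 and 21.7 normalized reads, against 10.8, 1.57, 0, 7.04, 0 and 0 in sham. That difference was 2.67 ± 1.09 (adjusted p = 0.071), and 3.12 (adjusted p = 0.035) or 3.01 (adjusted p = 0.0471) without sham replicate 1 or 4; as deposited it was 3.28 (adjusted p = 0.00876). From the 1 irradiated library that was not liver-rich it was 3.18 (adjusted p = 0.346).

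Tnf after acute 4.1 Gy spanned 83.5 to 189.9 normalized reads around a median of 129.8, against 67.2 to 78.1 around 72.3 in sham, and all 6 irradiated libraries lay above all 6 sham libraries. The difference of 0.83 ± 0.53 did not pass in the fit of all 14 groups (adjusted p = 0.317). With only the 2 compared groups it did (adjusted p = 0.00496), as it did with library weights (0.75, adjusted p = 0.0488) and as deposited (1.78, adjusted p = 0.00182). It was 1.04 (adjusted p = 0.352) without the liver-rich libraries. Tnf was listed at 0 in 1 VarDR library of day 30.

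The ratio of 1 member to another within a library is free of the scaling between libraries. Icam1 over Nfkb2, a pair picked after the values were seen and so given with no test, was higher in irradiated blood in every comparison. The mean ratio was 1.14 ± 0.179 after acute 2 Gy and 0.514 ± 0.0604 in sham (SD, n = 6 each). It was 1.23 ± 0.125 after acute 2.8 Gy (n = 3) and 0.506 ± 0.116 in sham (n = 6), and 1.10 ± 0.134 after acute 4.1 Gy and 0.505 ± 0.039 in sham (n = 6 each). In the VarDR groups it was 0.683 ± 0.108 (n = 5) and 0.473 ± 0.0478 in sham (n = 6) on day 2, 0.798 ± 0.0341 and 0.532 ± 0.0905 in sham on day 3, and 0.916 ± 0.149 and 0.516 ± 0.132 in sham on day 5 (n = 6 each). The groups overlapped only on VarDR day 30, with 0.690 ± 0.223 and 0.544 ± 0.0371 in sham (n = 6 each). Leaving out the liver-rich libraries only removes values, so it could not make groups that were apart overlap and is no check. It left 1 irradiated library on acute day 3. The ratio shows unequal change and does not say which gene moved.

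**Figure D4:**
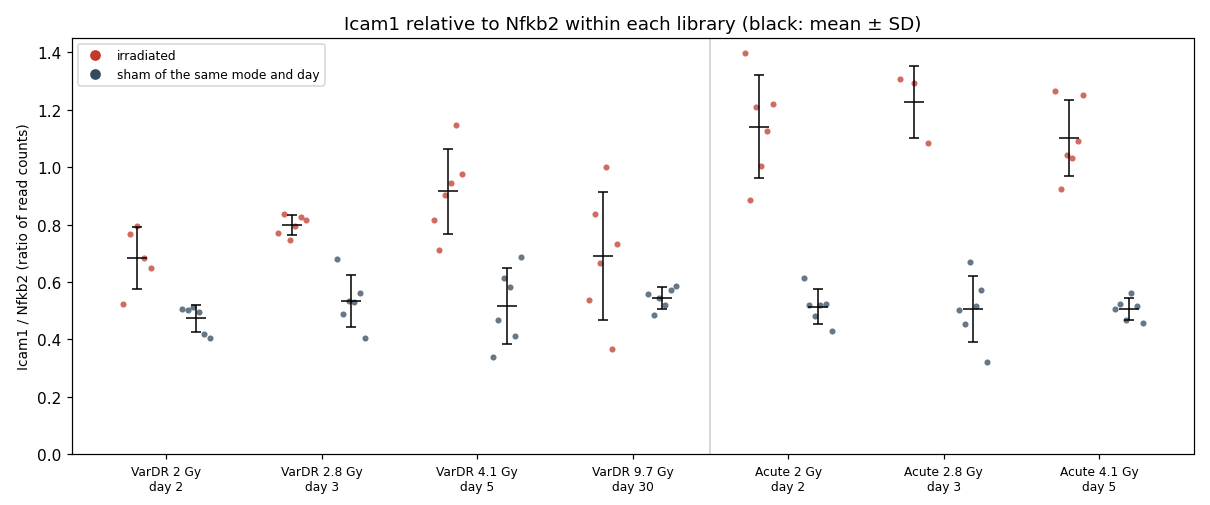
Ratio of Icam1 to Nfkb2 read counts within each library (vertical axis, linear from 0), irradiated left of the sham of the same mode and day, with mean ± SD in black. Acute irradiated groups average 1.10 to 1.23 and their shams 0.505 to 0.514, and irradiated and sham libraries do not overlap except on VarDR day 30.

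At matched cumulative dose and day, the acute and VarDR responses were compared as differences of differences. At 2 Gy, none of the 10 members passed the limma test of a difference between the modes, where 1.59% of all genes did, and 4 had an unadjusted p under 0.05: Ptgs2 differed by 2.34 ± 1.16, Relb differed by -0.74 ± 0.23 (adjusted p = 0.0883), Nfkbia by -0.61 ± 0.21 (adjusted p = 0.178) and Nfkb2 by -0.59 ± 0.19 (adjusted p = 0.124). With library weights Relb and Nfkb2 passed (-0.79 and -0.69). Without replicate 1 of the acute sham group, Relb (-0.88, adjusted p = 0.017) and Nfkb2 (-0.71, adjusted p = 0.0244) passed as well.

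At 2.8 Gy, Nfkb2 (-0.92 ± 0.21, adjusted p = 0.00341) and Relb (-0.99 ± 0.25, adjusted p = 0.0119) were lower in the acute response than in the VarDR response, relative to the typical gene; as deposited the differences were 0.08 and 0.01. They were the 2 of 10 members that passed, none higher and 2 lower, against 2.51% of all genes. As deposited 2 passed as well, Icam1 and Tnfaip3, both higher, and the share of all genes in that fit is not given here. Without the liver-rich libraries the Nfkb2 and Relb differences were -0.69 and -1.05, from 1 acute irradiated library.

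At 4.1 Gy, 3 of 10 members differed between the modes, none higher and 3 lower in the acute response, against 2.66% of all genes. As deposited 4 passed, 3 higher and 1 lower, and the share of all genes in that fit is not given here. Il1b differed by -2.09 ± 0.47 (adjusted p = 0.00491), and by -1.13 (adjusted p = 0.0545) as deposited. Ptgs2 differed by -4.58 ± 1.13 (adjusted p = 0.0112). Nfkbia differed by -0.84 ± 0.21 (adjusted p = 0.0111), and by 0.12 (adjusted p = 0.719) as deposited. None of the 3 passed without the liver-rich libraries (-1.88, -4.41 and -0.23; adjusted p 0.112, 0.137 and 0.712), which leaves 2 VarDR and 3 acute irradiated libraries. The acute response of day 5 minus that of day 2, with 1.65% of all genes passing, gave no member past the threshold in limma; 2 had an unadjusted p under 0.05, Ptgs2 at -3.20 ± 1.13 (adjusted p = 0.208) and Il1b at -1.17 ± 0.47 (adjusted p = 0.372).

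**Figure D5:**
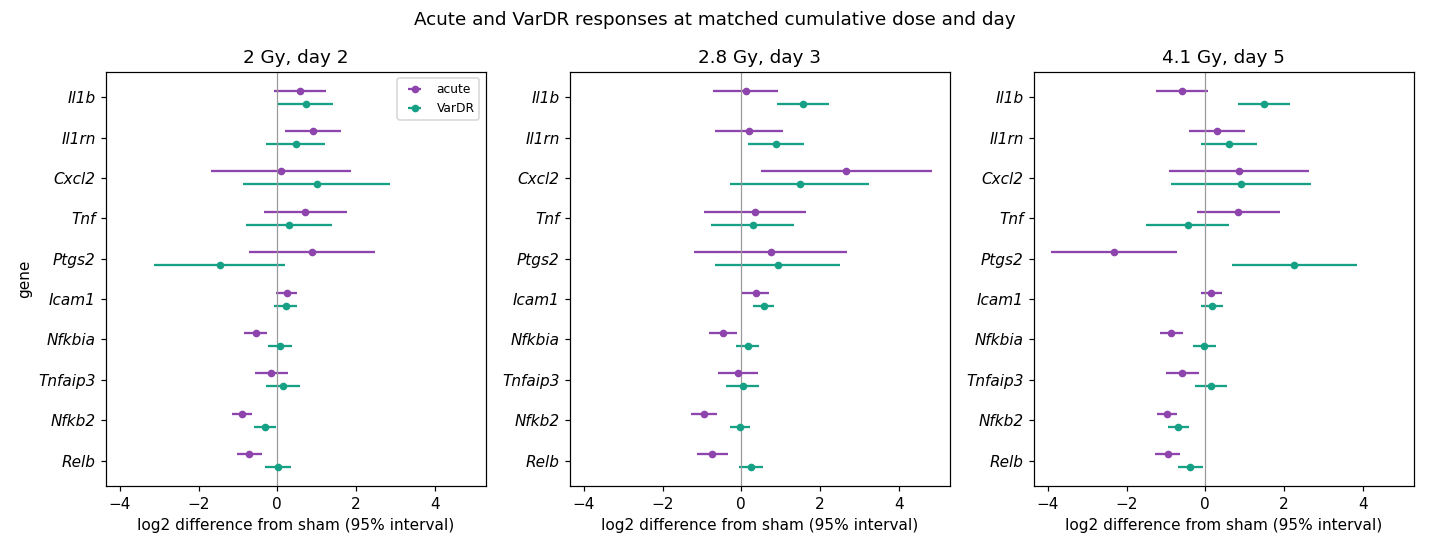
Log2 differences from sham with 95% intervals (horizontal axis) for the 10 genes at the 3 matched doses and days, acute in purple above VarDR in green. At 4.1 Gy the acute and VarDR intervals do not overlap for Il1b (-1.26 to 0.07 and 0.83 to 2.16), Ptgs2 (-3.91 to -0.73 and 0.67 to 3.85) or Nfkbia (-1.16 to -0.58 and -0.32 to 0.26). No difference between the modes at 4.1 Gy passed without the liver-rich libraries. Acute values read relative to the typical gene. As deposited the acute differences of Tnfaip3 at every dose, of Nfkbia at 2.8 and 4.1 Gy, of Nfkb2 and Relb at 2.8 Gy and of Il1b at 4.1 Gy change sign.

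The wider pathway was described from 4 lists of other NF-κB genes. The lists were chosen with earlier results of these data known, so their counts are descriptions. They stand beside the shares of all genes that passed, which were 3.27%, 10.4%, 8.79% and 25.1% on VarDR days 2, 3, 5 and 30 and 14.8%, 20.6% and 18.9% on acute days 2, 3 and 5. These shares are from the rescaled fit of all libraries. Shares as deposited and without the liver-rich libraries are not given, and the list counts of those fits are not read as a result. Of 13 further subunits, IκB proteins and kinases, 6 were lower and none higher on acute day 2, 4 were lower and 1 higher on acute day 3, and 4 were lower on acute day 5, all relative to the typical gene; as deposited none was lower and 4, 9 and 8 were higher on the 3 days. Leaving out the liver-rich libraries, 3 were lower and none higher on each of acute days 2 and 5, and day 3 kept 1 irradiated library. Rel, the c-Rel subunit of lymphocytes, led on days 2 and 5 (-0.88 ± 0.17, adjusted p = 3.64e-05, and -1.12 ± 0.17, adjusted p = 1.95e-07), and the median of the list was -0.30, -0.21 and -0.20 on the 3 days, against 0.05, 0.30 and 0.02 for all genes. As deposited Rel was at -0.40 and -0.17 on those days and did not pass. Map3k14, the kinase NIK of the non-canonical route, led on acute day 3 (-0.76 ± 0.20, adjusted p = 0.00255, and 0.26 as deposited), while Chuk, the kinase IKKα, was the 1 gene higher (0.38 ± 0.14, adjusted p = 0.0465). On VarDR day 30, 6 were lower, Rel first (-1.0 ± 0.17, adjusted p = 5.29e-06), and Ikbkg, the regulatory subunit NEMO, was higher (0.92 ± 0.22, adjusted p = 0.00086). The earlier VarDR days had 0, 1 and 2 lower and none higher. Ikbkg was the lower gene on VarDR day 3 (-0.88 ± 0.22, adjusted p = 0.00329), opposite in direction to day 30. It also passed there without the liver-rich libraries (-0.88). Rel led on VarDR day 5 (-0.72 ± 0.17, adjusted p = 0.00227) and did not pass without the liver-rich libraries (-0.23, adjusted p = 0.652). With the liver-rich libraries left out, Rel passed on acute days 2 and 5 (-0.90 and -1.28), and Map3k14 (-0.50, adjusted p = 0.332) and Chuk (0.40, adjusted p = 0.305) did not pass on day 3.

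Of 12 TRAF adapters and feedback inhibitors, 7 were lower and 1 higher on VarDR day 30, and at most 1 passed on each earlier VarDR day. After acute exposure 2, 1 and 3 were lower on days 2, 3 and 5, and 1 was higher, on day 2, again relative to the typical gene; as deposited none was lower and 6, 10 and 10 were higher. Birc3, the ubiquitin ligase cIAP2, led the lower genes on all 3 acute days (-0.77, -0.72 and -1.12; as deposited -0.29, 0.30 and -0.17) and on VarDR day 30 (-0.80 ± 0.15, adjusted p = 2.94e-05). Its relative Birc2, cIAP1, was higher on acute day 2 (0.63 ± 0.13, adjusted p = 0.000191) and VarDR day 30 (0.46 ± 0.13, adjusted p = 0.00736). Birc2 was also higher on VarDR day 3 (0.47 ± 0.13, adjusted p = 0.0109). Given the shares of all genes above, the acute counts are not read as a result about this list. Birc3 passed on acute days 2 and 5 (-0.83 and -1.08) and not on day 3 (-0.64, adjusted p = 0.229) without the liver-rich libraries.

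Of 18 other target genes, 16 were tested. Cd83, a surface protein of activated dendritic cells and B cells, was the leading lower gene on 6 of the 7 comparisons, from -0.93 ± 0.19 on VarDR day 3 to -2.80 ± 0.19 on acute day 5 (adjusted p = 9.13e-21). As deposited it was also lower on the 3 acute days (-1.55, -0.98 and -1.85). Without the liver-rich libraries it passed on acute days 2 and 5 (-2.10 and -2.71). It was at -1.41 on acute day 3, from 1 irradiated library. On VarDR day 30 Cd40, the B cell receptor of the non-canonical route, led instead (-0.97 ± 0.23, adjusted p = 0.000867). Tnfaip2 was higher on VarDR days 2, 3 and 5 (0.78, 0.91 and 0.65), Sod2 on day 30 (1.06 ± 0.22, adjusted p = 0.000128), Ccl3 on acute day 2 (0.93 ± 0.32, adjusted p = 0.0367) and Il1a on acute day 5 (2.29 ± 0.84, adjusted p = 0.0448). Ccl3 (0.90, adjusted p = 0.188), Il1a (1.67, adjusted p = 0.339) and Tnfaip2 on VarDR day 5 (0.57, adjusted p = 0.27) did not pass without the liver-rich libraries.

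Of 21 receptors, ligand processing genes and partners, more rose than fell in 6 of 7 comparisons: 4 against 1, 9 against 0 and 7 against 2 on VarDR days 2, 3 and 5, then 7 against 1, 6 against 2 and 8 against 2 on acute days 2, 3 and 5. On VarDR day 30 it was 0 against 1. Itgal led the higher genes on VarDR day 2 (0.78 ± 0.19, adjusted p = 0.00671). Itgb2, the β2 integrin chain that binds the Icam1 protein, led the higher genes on 5 days, with 0.93 ± 0.14 on VarDR day 3 (adjusted p = 2.09e-06) and 1.34 ± 0.14 on acute day 5 (adjusted p = 3.9e-12). Tnfrsf13c, the BAFF receptor of B cells, led the lower genes, with -1.95 ± 0.24 on VarDR day 5 (adjusted p = 9.68e-09) and -3.92 ± 0.24 on acute day 5 (adjusted p = 4.34e-23). As deposited, Itgb2 (1.60, 2.29 and 2.29) and Tnfrsf13c (-1.75, -1.97 and -2.98) kept their directions on the 3 acute days, and 14, 17 and 16 of the 21 genes were higher. With the liver-rich libraries left out, both genes passed on acute days 2 and 5 (1.11 and 1.38 for Itgb2, and -2.09 and -3.99 for Tnfrsf13c). On those days 5 and 6 genes were higher and 1 lower on each. On acute day 3, with 1 irradiated library left, the differences were 1.44 for Itgb2 and -2.45 for Tnfrsf13c. The medians of the 10 members themselves were 0.17, 0.43, 0.15 and -0.29 on VarDR days 2, 3, 5 and 30, and 0.17, 0.15 and -0.59 on acute days 2, 3 and 5, beside -0.04, -0.03, 0.10 and -0.18, and 0.05, 0.30 and 0.02 for all genes.

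The annotated spans of some members, introns included, overlap those of other genes. Whether exons overlap was not examined, and whether counting used strand is not given in the sources used here. Il1b overlaps the antisense gene Il1bos over 1243 bases, whose own level ranged over 0 to 74.3 with a median of 19.7. Icam1 overlaps Gm47079 over 511 bases (at most 28.6). Nfkb2 overlaps Psd over 299 bases (at most 83.1) and AC114539.1 over 1292 bases, which is not listed among the rows used. The measured levels were below the lowest library values of Il1b, Icam1 and Nfkb2.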

How the data were processed

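RNA from globin-depleted, ribosomal-depleted whole blood was sequenced as stranded total RNA libraries, per the labels' protocols. Per the submitters' processing notes, bcl2fastq 2.19, kallisto 0.44.0, sleuth and DESeq2 were used, on GRCm38. The authors deposited gene-level signal, normalized read counts that are not whole. Of low values, 1.86 to 54.4% of a column were whole multiples of its step (tolerance 0.01), so no count model was used. Of 82 columns, 80 matched a labelled sample and 2 were left out. Rows with symbols damaged to dates (26, at most 0.471% of a column) were dropped.

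Columns were rescaled by the median of ratios over 11349 genes above 0 everywhere. limma 3.58.1 in R 4.3.3 (trend, robust) fitted log2(value + 1) with 14 groups in 1 fit, which assumes that groups share their spread. Run on simulated data, it missed most of the smaller changes put in, so a gene that did not pass is not shown to be unchanged. Replicates correlated at r = 0.804 to 0.982. All 10 members are named in each comparison; of the other lists, the gene with the smallest adjusted p in each direction. Members and lists were chosen with earlier results of these data known. The deposited totals are sums of normalized values, so the number of sequenced reads behind each value is not known here. Precision is limited for the low levels of Ptgs2 and Cxcl2. Gene coordinates and exon lengths are from GENCODE M21.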

Additional observations from a re-analysis of the deposited data

Results flagged for a closer look

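Among 130 sets of a gene in a group of 5 or 6 libraries, 9 held a library far from the others, and chance gives such a flag in about 1 in 20 sets. These were Icam1 at 722 in acute sham day 3 replicate 3, Ptgs2 at 56.3 in acute sham day 2 replicate 4, Tnf at 94.2 in VarDR 4.1 Gy replicate 3, Nfkbia at 856 in VarDR sham day 3 replicate 1 and at 1139 in acute sham day 5 replicate 2. The others were Cxcl2 at 11.5 in VarDR sham day 30 replicate 6 and at 23.4 in acute 4.1 Gy replicate 4, Nfkb2 at 1451 in acute sham day 5 replicate 3 and Relb at 616 in VarDR sham day 5 replicate 2. Without that last library the acute minus VarDR difference of Relb at 4.1 Gy was -0.72 and passed the threshold.

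The response differed between modes or days in 6 results, by the test of the difference itself on rescaled values of all libraries. At 4.1 Gy the acute response minus the VarDR response was -2.09 for Il1b, -4.58 for Ptgs2 and -0.84 for Nfkbia (log2). At 2.8 Gy it was -0.92 for Nfkb2 and -0.99 for Relb. The VarDR response of Tnfaip3 on day 30 minus that on day 5 was -1.12. The share of all genes that passed was 2.66% at 4.1 Gy, 2.51% at 2.8 Gy and 12.5% for day 30 minus day 5. Without the liver-rich libraries the results at 4.1 Gy and that of Tnfaip3 did not pass. Those at 2.8 Gy then rested on 1 acute irradiated library. As deposited, Nfkb2 and Relb at 2.8 Gy and Nfkbia at 4.1 Gy changed sign.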

How the results depend on the processing

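No paired analysis was possible because the labels give no replicate numbers; those used here follow the order of listing. Of 2800 recomputed member results, 13 reversed, all with values as deposited, where the median gene of the acute groups was raised, and 135 results that passed in neither fit changed sign. On acute day 3 Nfkb2 became 0.06, Nfkbia 0.56, Relb 0.28 and Tnfaip3 0.93, and on acute day 5 Nfkbia 0.08 and Tnfaip3 0.36. The acute minus VarDR difference became 0.79 for Icam1, 0.08 for Nfkb2, 0.01 for Relb and 0.89 for Tnfaip3 at 2.8 Gy, and 0.94 for Icam1, 0.68 for Nfkb2 and 0.12 for Nfkbia at 4.1 Gy. In an alternative chosen after seeing the data, the other lists were also fitted as deposited and without the liver-rich libraries; as deposited Birc3 became 0.30 and Map3k14 0.26 on acute day 3.

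The number of the 10 members past the threshold changed as follows; the cause was not tested. As deposited, where the median gene of the acute groups was itself raised, it was 6 on acute day 3 and 3 on acute day 5. For acute minus VarDR, as deposited, it was 2 higher at 2.8 Gy and 3 higher and 1 lower at 4.1 Gy. With only the compared groups it was 1 on VarDR day 3 and 2 for VarDR day 30 minus day 5. With library weights it was 1 on VarDR day 2, 4 on acute day 3, 2 for acute minus VarDR at 2 Gy and 1 for acute day 5 minus day 2. Without the libraries over 0.5% liver markers, which leaves fewer samples, it was 1 on VarDR day 5, 3 on acute day 5, and 1, 0 and 0 for acute minus VarDR at 2, 2.8 and 4.1 Gy. No filter, a pseudocount of 0.1 and quantile normalization kept each count within 1.5 times.

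Leaving out 1 library at a time gave 0 to 0 members on VarDR day 2, 2 to 2 on day 3, 2 to 3 on day 5 and 2 to 4 on day 30; 3 to 4, 2 to 3 and 3 to 5 on acute days 2, 3 and 5; 0 to 2, 2 to 2 and 3 to 4 for acute minus VarDR at the 3 doses; 1 to 1 for VarDR day 30 minus day 5 and 0 to 0 for acute day 5 minus day 2. None of these reversed a called member result. The 3 libraries of acute day 3 and the near-zero levels of Ptgs2 and Cxcl2 limit what those values can show.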
